A study of Saccharomyces cerevisiae with 8 samples.

Results

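Budding yeast cells deficient in grr1 were compared with wild-type (WT) cells of the same W303 background before any drug exposure, across all genes, by RNA sequencing. The 4 libraries compared are the 2 biological replicates of each genotype at 0 h, chosen by their time label out of 8 libraries in the series. The first group is grr1-deficient W303, for which neither the construction of the allele nor the number of independent clones is given in the sources used here, and the other is WT W303. Cultures of both had reached an OD600 of 0.2 at 30 °C, in synthetic medium holding 2% glucose, and both carry the treatment label tunicamycin with a time of 0 h. Total RNA was taken from cleared lysates made in a buffer for ribosome profiling. The remaining 4 libraries, grr1-deficient and WT cells after 4 h in tunicamycin at 1 µg/ml, entered the same statistical fit and are used below only where the genotype difference at 4 h is set beside that at 0 h.

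Grr1, an F-box protein, gives an SCF-type ubiquitin ligase its specificity and selects proteins for degradation. In glucose-grown yeast it is known for removing Mth1 and Std1, the partners of the repressor Rgt1, and so for allowing hexose transporter genes to be transcribed. It also acts in the SPS pathway, in which a plasma membrane sensor of external amino acids leads to processing of the factors Stp1 and Stp2 and to transcription of permease genes, and it targets the G1 cyclins Cln1 and Cln2.

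GRR1 itself (YJR090C) had 2 and 3 reads in the grr1-deficient libraries, against 1179 and 1384 in WT. Replicates 1 and 2 are given in this order throughout. That was 361.6-fold more in WT, with an exact 95% counting interval of 154.8 to 1115. Reads counted in genes numbered 8256539 and 4885844 in grr1-deficient libraries and 12119744 and 12083581 in WT, so that 3 reads, the limit a count of 0 allows, came to 0.397 and 0.56 CPM in grr1-deficient libraries and 0.333 and 0.323 CPM in WT, CPM being TMM-scaled counts relative to library size. The MATa genes STE2, MFA2 and BAR1 were read in all 4 libraries, and MF(ALPHA)1 and MF(ALPHA)2 stayed under 2 CPM in each. Of 3 tested MATalpha-specific genes 1 was called higher and 0 lower, with log2 changes from 0.15 to 2.04. Their list took 0.0016% and 0.0030% of gene reads in grr1-deficient libraries, against 0.00081% in each WT library. The grr1-deficient replicate 2 stood apart: mitochondrial genome genes took 10.8% and 0.386% of reads in grr1-deficient replicates 1 and 2 and 1.85% and 1.72% in WT, and of the 18860 mitochondrial reads in grr1-deficient replicate 2, 18668 lay in the single region Q0092. Of 24 tested mitochondrial genome genes 1 was called higher and 0 lower, and the largest log2 change of that list was 11.61. Between replicates, 55 nuclear genes differed by over 4-fold in grr1-deficient cells and 0 in WT. Values without that library are therefore given beside many of the results, though not all, and the part it plays in each was not tested.

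Of 5855 genes tested, 1316 (22.5%) were higher and 1595 (27.2%) lower in grr1-deficient cells, by edgeR's quasi-likelihood test at an adjusted p under 0.05. These 2 shares are the background for every count of called list members below. The rises were larger than the falls. A difference of over 2-fold was seen in 760 of the genes called higher and 500 of those called lower, over 4-fold in 262 and 52, and over 16-fold in 43 and 11. In each of the 2911 called genes the grr1-deficient values did not overlap the WT values, as was so for 77.4% of all tested genes. The median log2 fold change over all genes was −0.06 with TMM scaling and 0.34 with scaling by total counts, and the calls then numbered 2106 higher and 646 lower. Without grr1-deficient replicate 2 there were 1196 higher and 1338 lower calls, of which 1066 and 1252 were also calls of the full comparison. The plot of fold change by expression level shows that the lists described below occupy different ranges of it.

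**Figure D1:**
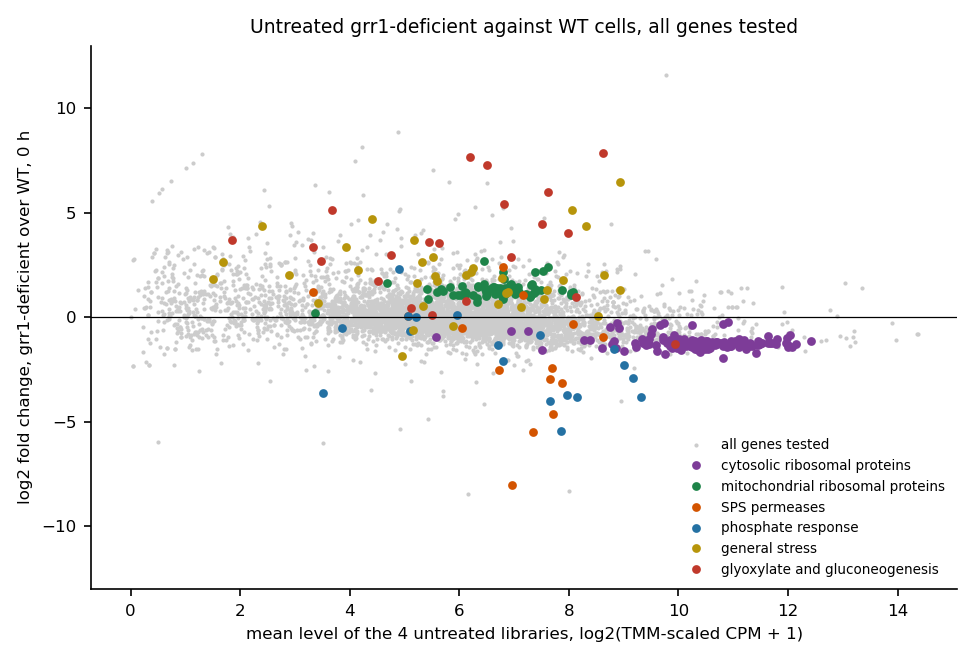
Log2 fold change of grr1-deficient over WT cells at 0 h (vertical axis) against the mean level of the 4 untreated libraries, as log2 of TMM-scaled CPM plus 1 (horizontal axis), for the 5855 genes tested. Each point is a gene, and 6 lists are coloured. Cytosolic ribosomal proteins lie at the right between 0 and −2, mitochondrial ribosomal proteins mostly between 1 and 2, and the permease, phosphate and gluconeogenic genes reach the extremes.

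Genes for hexose transporters, which carry glucose across the plasma membrane, moved in both directions. HXT1, HXT3, HXT4 and HXT2 were lower in grr1-deficient cells and HXT5, HXT6, HXT7, HXT9 and HXT15 higher, 4 and 5 of 16 tested members, beside 27.2% and 22.5% of all genes, and without grr1-deficient replicate 2 they numbered 5 and 3. HXT1, a low-affinity transporter used at high glucose, stood at 0.927 and 2.43 CPM in grr1-deficient libraries, against 491 and 530 CPM in WT, a log2 change of −8.32 ± 0.32 (edgeR adjusted p = 2.82e-06). Values after ± are derived from the test statistic throughout and are not fitted standard errors. Only GRR1 itself had a lower fold change among the genes called. HXT3, another low-affinity transporter, had 43.1 and 73.9 CPM in grr1-deficient libraries and 974 and 877 CPM in WT (−3.99 ± 0.26, edgeR adjusted p = 4.44e-05). HXT4 had 1.72 and 0.934 CPM in grr1-deficient libraries and 68.7 and 46.4 CPM in WT (−5.37 ± 0.52, edgeR adjusted p = 0.000283). In all of these genes both grr1-deficient libraries lay far under both WT libraries. HXT2 showed a smaller difference, 47.4 and 82.5 CPM in grr1-deficient libraries against 173 and 124 CPM in WT (−1.20 ± 0.29, edgeR adjusted p = 0.0121), and its call was lost with the 4 untreated libraries alone, without WT replicate 1 and with total counts.

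The high-affinity transporters HXT6 and HXT7, whose coding sequences are nearly identical so that reads may be split between them, went the other way. HXT6 had 821 and 1593 CPM in grr1-deficient libraries and 163 and 107 CPM in WT, a log2 change of 3.16 ± 0.56 (edgeR adjusted p = 0.00507). HXT7 had 848 and 1648 CPM in grr1-deficient libraries and 167 and 114 CPM in WT (3.15 ± 0.56). Replicate 2 was the higher of the grr1-deficient pair in both. HXT5, a transporter of slow-growing cells, had 26.9 and 50.6 CPM in grr1-deficient libraries against 9.23 and 9.04 CPM in WT (2.07 ± 0.27, edgeR adjusted p = 0.00062). HXT9 and HXT15 were called at under 10 CPM (log2 1.36 and 3.13), and neither call held without grr1-deficient replicate 2. HXT13 had 2.65 and 67.6 CPM in grr1-deficient libraries, far apart from each other and both above the 0 and 0.215 CPM of WT, and it did not pass the test (edgeR adjusted p = 0.158). HXT8, HXT10, HXT11, HXT14, HXT16 and HXT17 did not pass either. Per length, in the RPKM the authors deposited, the order of the family changed between genotypes. In grr1-deficient libraries HXT7 led with 385 and 850 RPKM, followed by HXT6 with 347 and 766 RPKM, HXT2 with 21.2 and 41.8 RPKM and HXT3 with 18.8 and 36.6 RPKM, and the values within each of these pairs overlap. In WT, HXT3 led with 349 and 325 RPKM, followed by HXT1 with 201 and 225 RPKM, and HXT7 stood at 62.4 and 44.3 RPKM, overlapping HXT2 at 63.3 and 47.2 RPKM. The whole family took 0.165% and 0.390% of gene reads in grr1-deficient libraries and 0.153% and 0.140% in WT.

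The repressor Rgt1 binds hexose transporter promoters through the letters CGGANNA. The motif was searched on both strands in the 800 bases before each start codon, and 58.3% of 6003 genes hold it at least once and 23.4% at least 2 times. Of all genes called lower, 58.5% hold it at least once and 22.5% at least 2 times. All 4 lower HXT genes hold 2 or more matches (median 4.5), as do 6 of the other 12 tested HXT genes (median 1.5 over the 12). HXT8, which did not pass, holds 6 matches and HXT5, which was higher, holds 4. The lower HXT2 and HXT4 hold 3 each. Shown here, as examples from transporter and repressor genes that were lower, are a pair of windows from HXT1 (6 matches) and a window each from HXT3 (8 matches) and MIG2 (5 matches), from the R64 genome in RefSeq, 5′ to 3′, with the motif in capitals.
HXT1 window 1: gggtcacttCGGAAAAacttttgac
HXT1 window 2: atgccgcttCGGAAAAactttcgaa
HXT3 window: ggacgaatcCGGAAAAactacgtga
MIG2 window: tttctcgcaCGGATTAtttaccgta
The HXT1 windows lie at chrVIII:293094-293118 and chrVIII:293387-293411 on the plus strand, 481 and 774 bases before the start codon. The HXT3 window is chrIV:1165087-1165111 on the plus strand, 439 bases before its start codon, and the MIG2 window is chrVII:95615-95639 on the minus strand, 231 bases before. A match describes the sequence and is not a measured binding site.

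Of the genes of the glucose signalling pathway itself, 4 of 20 were higher (20.0%, beside 22.5% of all genes) and 9 lower (45.0%, beside 27.2%), with a median log2 change of −0.33. Without grr1-deficient replicate 2 the counts were 4 and 6, and with total counts they turned to 6 higher and 4 lower with a median of 0.09. MTH1, the Rgt1 partner that Grr1 marks for degradation, was higher, with 23.1 and 25 CPM in grr1-deficient libraries and 12.7 and 10.3 CPM in WT (log2 1.06 ± 0.18, edgeR adjusted p = 0.00165). Its paralog STD1 was lower, with 6.76 and 7.66 CPM in grr1-deficient libraries and 60 and 60.6 CPM in WT (−3.07 ± 0.21, edgeR adjusted p = 4.44e-05). The paralogs thus differed from WT in opposite directions. RGT1 was higher (143 and 96.9 CPM in grr1-deficient libraries, 49.2 and 61 CPM in WT, log2 1.12 ± 0.32), a call lost without either WT replicate or without grr1-deficient replicate 1. SNF3, the sensor of low glucose, had 54.2 and 48.6 CPM in grr1-deficient libraries against 14.8 and 16.9 CPM in WT (1.70 ± 0.16, edgeR adjusted p = 0.000164), while RGT2, the sensor of high glucose, had 42.1 and 46.1 CPM in grr1-deficient libraries and 39.9 and 47.1 CPM in WT and did not pass (log2 0.02).

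Among the glucose repressors, MIG2 had 4 reads over both grr1-deficient libraries and 374 over both WT libraries, 66-fold more in WT with an exact 95% interval of 25.6 to 243.4. MIG3 had 0.53 and 1.68 CPM in grr1-deficient libraries and 7 and 10 CPM in WT (log2 −3.03 ± 0.48). MIG1 was lower by less, 31.7 and 37.7 CPM in grr1-deficient libraries against 55.9 and 56.9 CPM in WT (−0.70 ± 0.13, edgeR adjusted p = 0.0024, lost with total counts). The corepressor genes TUP1 (−0.96) and CYC8 (−0.74) were lower too, but the call of CYC8 was lost without grr1-deficient replicate 2, without WT replicate 2 and with total counts. SNF1 and SNF4, the catalytic subunit of the kinase active at low glucose and its activating subunit, did not pass (log2 −0.01 each). Of the hexose kinases, the glucose-repressed HXK1 and GLK1 and the GLK1 paralog EMI2 were higher. HXK1 had 506 and 1163 CPM in grr1-deficient libraries and 39.2 and 36.4 CPM in WT (4.46 ± 0.42, edgeR adjusted p = 0.000344). GLK1 had 360 and 402 CPM in grr1-deficient libraries and 61.3 and 59 CPM in WT (2.66 ± 0.15), and EMI2 changed by 2.12 ± 0.19. HXK2, the main hexokinase in glucose, had 1436 and 1309 CPM in grr1-deficient libraries and 1850 and 1761 CPM in WT and did not pass (−0.40, edgeR adjusted p = 0.132). The plot by library shows the transport and signalling genes beside the amino acid permeases.

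**Figure D2:**
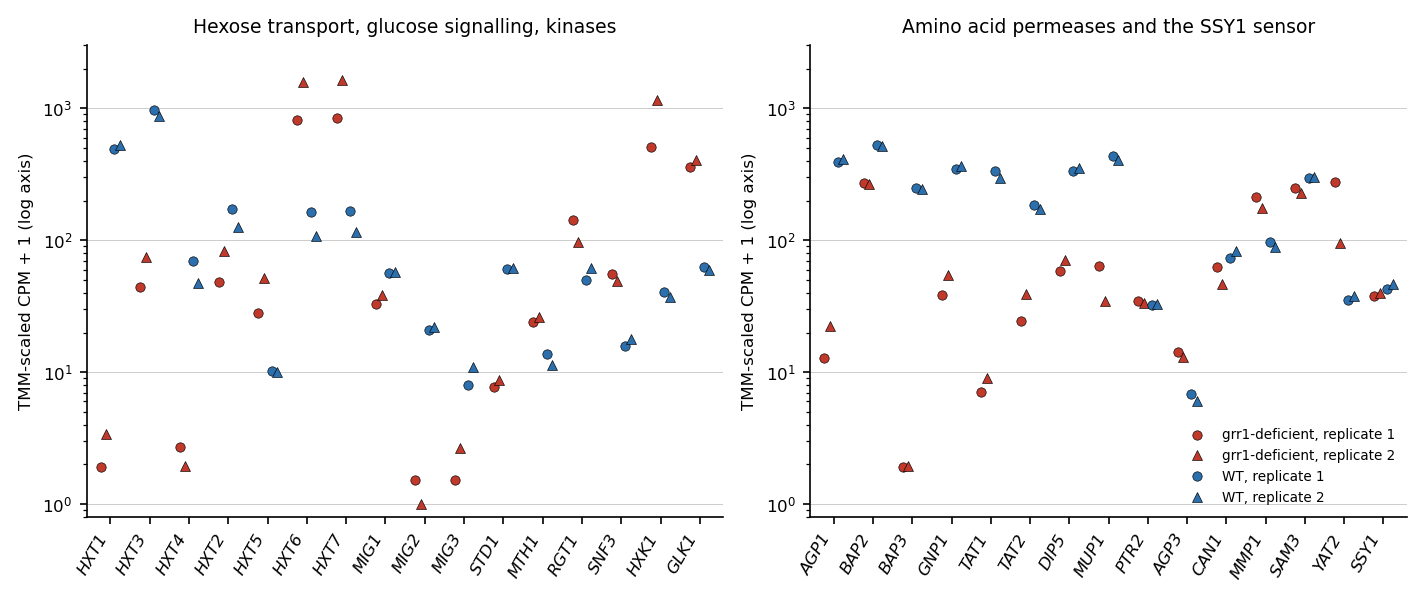
TMM-scaled CPM plus 1 on a log axis for hexose transport and glucose signalling genes (left) and amino acid permeases with the SSY1 sensor (right), for each untreated library. Circles are replicate 1 and triangles replicate 2, grr1-deficient in red and WT in blue. HXT1, HXT4, MIG2 and BAP3 lie near 1 in grr1-deficient cells, where HXT6, HXT7 and HXK1 lie above WT.

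Amino acid permeases induced through the SPS sensor were lower in 10 of 14 members and higher in 3, with a median log2 change of −1.70 (−0.06 over all genes), and 8 were lower without grr1-deficient replicate 2. BAP3, a permease for branched-chain and other neutral amino acids, had 0.927 and 0.934 CPM in grr1-deficient libraries and 248 and 242 CPM in WT, a log2 change of −8.02 ± 0.22 (edgeR adjusted p = 7.6e-07). Its grr1-deficient values rest on 7 and 5 reads. TAT1, which carries valine, leucine, isoleucine and tyrosine, had 6.09 and 8.03 CPM in grr1-deficient libraries and 335 and 298 CPM in WT (−5.50 ± 0.23, edgeR adjusted p = 2.85e-06). AGP1, a permease of broad specificity, had 11.8 and 21.3 CPM in grr1-deficient libraries and 393 and 413 CPM in WT (−4.62 ± 0.35, edgeR adjusted p = 0.000139). For all of these, the grr1-deficient libraries lay close to each other and well under WT. The methionine permease MUP1 changed by −3.12 ± 0.48, the glutamine permease GNP1 by −2.96 ± 0.35, the tryptophan permease TAT2 by −2.54 ± 0.36 and the glutamate and aspartate permease DIP5 by −2.44 ± 0.23, all without overlap between genotypes. BAP2, also a branched-chain permease, differed by less, with 270 and 266 CPM in grr1-deficient libraries and 530 and 515 CPM in WT (−0.96 ± 0.13).

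CAN1, the arginine permease, and SAM3, the S-adenosylmethionine permease, were called lower by small margins (−0.52 and −0.31). Both calls were lost without grr1-deficient replicate 2, without either WT replicate and in the fit of untreated libraries alone. Both were also lost with total counts, under which SAM3 turned to 0.09. That of SAM3 was lost as well with the replicate block (edgeR adjusted p = 0.0665), with DESeq2 and without mitochondrial genome genes. AGP3 (1.22 ± 0.24), the S-methylmethionine permease MMP1 (1.08 ± 0.19) and YAT2, a carnitine acetyltransferase gene placed in this list (2.38 ± 0.49), were higher, the last with a call lost without either WT replicate and in the fit of untreated libraries alone. The peptide transporter PTR2 had 33.4 and 32.7 CPM in grr1-deficient libraries and 31.3 and 31.8 CPM in WT and did not pass (0.06). Of the 12 genes of the sensor and its transcription factors, SSY1, PTR3, SSY5 and STP1 did not pass (log2 −0.21, 0.01, −0.10 and 0.01), and STP2 alone was called (0.61 ± 0.11, higher). Genes for oligopeptide uptake and the deaminase gene CHA1, outside the list, were lower as well, while of 13 amino acid breakdown genes, CHA1 included, 7 were higher and 2 lower (median 0.60). OPT2 had 1.59 and 4.29 CPM in grr1-deficient libraries and 77.7 and 85.6 CPM in WT (−4.87 ± 0.37, edgeR adjusted p = 9.32e-05). OPT1, the glutathione and oligopeptide transporter, had 7.29 and 11.2 CPM in grr1-deficient libraries and 150 and 176 CPM in WT (−4.16 ± 0.36). CHA1, which deaminates serine and threonine, had 43.9 and 66.5 CPM in grr1-deficient libraries and 275 and 238 CPM in WT (−2.22 ± 0.20).

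The factor Pho4 activates genes of the phosphate response when phosphate is short, and the list for this response also holds regulators and PHO3. It was lower in 14 of 18 tested members and higher in 1, with a median of −1.79 (−1.67 without grr1-deficient replicate 2). The secreted acid phosphatase PHO5 had 24 and 22.2 CPM in grr1-deficient libraries and 345 and 409 CPM in WT, a log2 change of −4.03 ± 0.16 (edgeR adjusted p = 2.82e-06). PHO3, a phosphatase that also hydrolyses thiamine phosphates and is counted in the thiamine list too, had 12.5 and 8.03 CPM in grr1-deficient libraries and 455 and 449 CPM in WT (−5.44 ± 0.28, edgeR adjusted p = 1.3e-05). The high-affinity phosphate transporter PHO84 had 87.4 and 82 CPM in grr1-deficient libraries and 1222 and 1169 CPM in WT (−3.82 ± 0.33, edgeR adjusted p = 0.00019). In each of these genes both grr1-deficient libraries lay close together and far under both WT libraries. The near-identical phosphatases PHO12 and PHO11 changed by −3.79 and −3.71, and VTC3 and VTC4, subunits of the vacuolar polyphosphate polymerase, by −2.91 ± 0.13 and −2.30 ± 0.13. PHO89, a sodium-coupled phosphate transporter, was the single member called higher, with 61.6 and 34.9 CPM in grr1-deficient libraries and 10.7 and 8.72 CPM in WT (2.32 ± 0.30). The regulators PHO80, PHO85 and PHO2 did not pass, and PHO4 was lower by −0.64, a call lost without grr1-deficient replicate 2, without either WT replicate and with total counts.

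The core sequence recognised by Pho4, CACGTG, stands in the upstream 800 bases of 9.0% of all genes, of 10.8% of all genes called lower and of 12 of the 14 lower phosphate genes. The palindrome reads alike on both strands, and the windows of PHO5, PHO84 and VTC3 are printed in the plus strand of R64 (RefSeq) with the motif in capitals, as examples from a phosphatase, a transporter and a polymerase subunit.
PHO5: tgctagtccCACGTGtgagtgcca
PHO84: tttccgcccCACGTGctggaaata
VTC3: gtattaagcCACGTGggccctcgc
They lie at chrII:431190-431213, chrXIII:26200-26223 and chrXVI:517349-517372, centred 250, 411 and 342 bases before the start codons. PHO3 holds no match in this window. Among metal uptake genes, the zinc transporters ZRT1 (12.9 and 14.8 CPM in grr1-deficient libraries, 99.9 and 71.4 CPM in WT, log2 −2.64 ± 0.22) and ZRT2 (−1.47 ± 0.19) were lower. FRE7, a ferric and cupric reductase gene known from copper-starved cells, was among the largest rises, with 52.2 and 62.2 CPM in grr1-deficient libraries and 1.56 and 1.61 CPM in WT (5.16 ± 0.20, edgeR adjusted p = 2.82e-06).

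Genes of gluconeogenesis, the glyoxylate cycle and their regulators, normally repressed by glucose, were higher in 14 of 21 members and lower in 1, with a median log2 change of 3.55. The count was 18 higher without grr1-deficient replicate 2 (median 3.74), 13 without replicate 1 (median 2.15) and 8 in a fit of the 4 untreated libraries alone. JEN1, the lactate and pyruvate transporter, had the largest called rise in fold among nuclear genes with at least 50 reads. It had 1468 and 94.3 CPM in grr1-deficient libraries and 3.78 and 2.91 CPM in WT (7.87 ± 1.77, edgeR adjusted p = 0.0223). PCK1, which makes phosphoenolpyruvate from oxaloacetate, had 403 and 34.5 CPM in grr1-deficient libraries and 5.22 and 4.95 CPM in WT (5.43 ± 1.40, edgeR adjusted p = 0.0324). FBP1, the fructose bisphosphatase of gluconeogenesis, had 42.9 and 3.17 CPM in grr1-deficient libraries and 0.667 and 0.646 CPM in WT (5.13 ± 1.38, edgeR adjusted p = 0.0265). IDP2, the cytosolic isocitrate dehydrogenase, had 656 and 115 CPM in grr1-deficient libraries and 5 and 6.99 CPM in WT (6.0 ± 1.27, edgeR adjusted p = 0.0172). In these 4 genes the grr1-deficient replicates differed from each other by 5-fold or more, replicate 1 being the higher, and the calls were lost in the fit of untreated libraries alone and without either WT replicate.

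ALD4, ADR1 and CAT8 were read at more similar levels in both grr1-deficient libraries. ALD4, the mitochondrial aldehyde dehydrogenase, had 449 and 503 CPM in grr1-deficient libraries and 31.9 and 25.8 CPM in WT (4.04 ± 0.33, edgeR adjusted p = 0.000164). ADR1, an activator of genes for ethanol and fatty acid use, had 278 and 153 CPM in grr1-deficient libraries and 26.1 and 32.1 CPM in WT (2.89 ± 0.28). CAT8, the activator of gluconeogenic genes, had 123 and 35.9 CPM in grr1-deficient libraries and 6.67 and 6.35 CPM in WT (3.62 ± 0.65, edgeR adjusted p = 0.0068), a call lost in the fit of untreated libraries alone. Wider apart between the grr1-deficient replicates, the glyoxylate cycle enzymes ICL1 (669 and 23 CPM in grr1-deficient libraries, 15.9 and 15.3 CPM in WT) and MLS1 (353 and 5.23 CPM in grr1-deficient libraries, 1.45 and 0.861 CPM in WT) did not pass the test (edgeR adjusted p = 0.106 and 0.0865) and did so without replicate 2. The carrier SFC1 behaved likewise, with 278 and 10.5 CPM in grr1-deficient libraries and 0.889 and 0.538 CPM in WT. ADH2, the ethanol-oxidising alcohol dehydrogenase, was the member called lower, with 421 and 744 CPM in grr1-deficient libraries and 1346 and 1432 CPM in WT (−1.25 ± 0.25, edgeR adjusted p = 0.00353, lost with total counts). Whether these counts include reads of its paralog ADH1 was not tested.

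The carbon source response element, written as CCNNT, any 3 bases and CCG, and searched on both strands, stands in the upstream 800 bases of 13 of the 21 genes of the list. It stands in those of 11.8% of all genes and 14.8% of all genes called higher. FBP1 and CAT8, both called higher, hold no match. A window each of JEN1 and PCK1, a transporter and an enzyme called higher, is shown with the element in capitals, from R64 (RefSeq).
JEN1: caatttactCCACTAGACCGgcgtgtttc
PCK1: accgagcttCCTTTCATCCGgcgcggctg
Both are on the plus strand of chromosome XI, chrXI:21579-21607 and chrXI:630662-630690, centred 641 and 476 bases before the start codons. The plot of carbon genes by library adds the respiratory and stress genes.

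**Figure D3:**
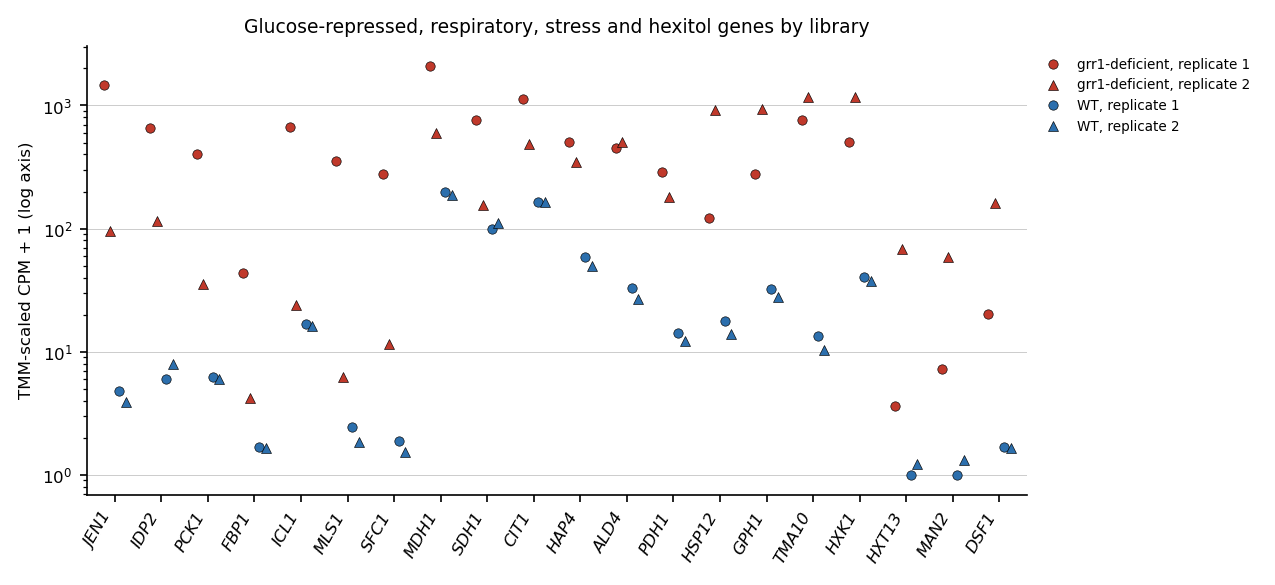
TMM-scaled CPM plus 1 on a log axis for glucose-repressed, respiratory, stress and hexitol genes in each untreated library, grr1-deficient in red and WT in blue, with circles for replicate 1 and triangles for replicate 2. From JEN1 to SFC1 replicate 1 of the grr1-deficient cells is the higher, from HSP12 to DSF1 replicate 2 is, and the WT replicates nearly coincide.

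Genes for other sugars were higher in 10 of 18 members and lower in 0 (9 without grr1-deficient replicate 2). The maltases MAL12 and MAL32, near-identical copies, stood at 104 and 195 CPM and at 89.8 and 152 CPM in grr1-deficient libraries, against 4.11 and 3.55 CPM and 4.34 and 3.55 CPM in WT (5.28 ± 0.75 and 4.93 ± 0.63). SUC2, the invertase, had 255 and 467 CPM in grr1-deficient libraries and 113 and 110 CPM in WT (1.69 ± 0.28). GAL4 (2.19 ± 0.29) and GAL3 (1.81 ± 0.20), an activator and a galactose sensor, were higher, while the enzyme genes GAL1, GAL7 and GAL10 stayed under 5 CPM in all 4 libraries and did not pass. DSF1 and MAN2, mannitol dehydrogenase genes, had 19.3 and 159 CPM and 6.23 and 58.3 CPM in grr1-deficient libraries, against at most 0.667 CPM in WT, and missed the threshold (edgeR adjusted p = 0.0547 and 0.0631). Peroxisomal fatty acid oxidation was higher in 10 of 15 members and lower in 0 (8 without that library). POT1, the thiolase, had 272 reads over both grr1-deficient libraries and 6 over WT, a ratio of 64.3 with an exact 95% interval of 29.1 to 176.6. POX1, the acyl-CoA oxidase, had 161 and 10 reads (ratio 22.8, 12.1 to 48.5), and FOX2, the multifunctional enzyme, changed by 2.55 ± 0.16.

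Genes of the TCA cycle were higher in 10 of 20 members and lower in 2, and higher in 17 without grr1-deficient replicate 2. IDH1 and IDH2, the subunits of the mitochondrial isocitrate dehydrogenase, had 872 and 663 CPM and 1636 and 1322 CPM in grr1-deficient libraries, against 176 and 166 CPM and 433 and 398 CPM in WT (2.16 ± 0.18 and 1.83 ± 0.19). CIT1, the citrate synthase, had 1134 and 490 CPM in grr1-deficient libraries and 164 and 163 CPM in WT (2.31 ± 0.37, edgeR adjusted p = 0.00197). MDH1, the malate dehydrogenase, had 2093 and 597 CPM in grr1-deficient libraries and 199 and 188 CPM in WT (2.80 ± 0.66, edgeR adjusted p = 0.0166), a call lost without either WT replicate and in the fit of untreated libraries alone. Replicate 1 was the higher of the grr1-deficient pair in all 4 genes. Of 15 tested genes of the retrograde pathway, which signals from mitochondria to the nucleus, 8 were higher and 0 lower. PDH1, a propionate catabolism gene, had 287 and 178 CPM in grr1-deficient libraries and 13.1 and 11.3 CPM in WT (4.25 ± 0.25), and CIT2, the peroxisomal citrate synthase used as its reporter, had 368 and 366 CPM in grr1-deficient libraries and 205 and 176 CPM in WT (0.95 ± 0.12). DLD3, another known target, did not pass (−0.03), nor did the regulators RTG2, RTG3 and MKS1.

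HAP4, the limiting subunit of the activator of respiratory genes, had 503 and 346 CPM in grr1-deficient libraries and 57.5 and 48.7 CPM in WT (3.0 ± 0.21, edgeR adjusted p = 5.09e-05). Nuclear genes for the respiratory chain and ATP synthase were higher in 9 of 38 members, 23.7% beside 22.5% of all genes, with a median of 1.04, and count and median rested on which grr1-deficient library was kept. Without replicate 2 they were 26 and 1.65, and without replicate 1 they were 7 and −0.02. The ATP synthase subunit ATP7, with 1448 and 459 CPM in grr1-deficient libraries and 240 and 217 CPM in WT (2.06 ± 0.59, edgeR adjusted p = 0.0302), shows the split, and its call was lost without replicate 1, without either WT replicate and in the fit of untreated libraries alone. By contrast, mitochondrial ribosomal proteins, which translate the mitochondrial genome, were higher in 65 of 67 members with a median of 1.29, and in 66 and 65 without replicate 1 and replicate 2. MRPL31 had 112 and 187 CPM in grr1-deficient libraries and 21.5 and 24.1 CPM in WT (2.71 ± 0.32, edgeR adjusted p = 0.000584), and MRPL38 (2.41 ± 0.18), MRPL13 (2.24 ± 0.24) and MRP17 (2.19 ± 0.19) followed. Mitochondrial import genes were higher in 14 of 31 and lower in 2 (9 and 0 without replicate 2), among them the intermembrane space receptor MIA40 (546 and 803 CPM in grr1-deficient libraries, 142 and 147 CPM in WT, 2.22 ± 0.30) and the chaperonin HSP60 (1.28 ± 0.19). In bulk RNA, more cells of a kind and more RNA per cell cannot be told apart. CYB2, the lactate dehydrogenase of the intermembrane space, had 291 and 139 CPM in grr1-deficient libraries and 6.89 and 4.73 CPM in WT (5.21 ± 0.48), and RGI2, a gene linked to respiratory growth, had 238 reads over both grr1-deficient libraries and 4 over WT, a ratio of 84.3 (32.5 to 312.1).

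General stress genes under the factors Msn2 and Msn4 were higher in 25 of 35 members and lower in 1, with a median of 1.86 (24 higher and 1.05 without grr1-deficient replicate 2). TMA10, a small ribosome-associated protein, had 761 and 1181 CPM in grr1-deficient libraries and 12.3 and 9.36 CPM in WT, a log2 change of 6.48 ± 0.30 (edgeR adjusted p = 5.7e-06). HSP12, a membrane-stabilising protein, had 120 and 916 CPM in grr1-deficient libraries and 16.9 and 12.8 CPM in WT (5.12 ± 1.13, edgeR adjusted p = 0.0158), and GPH1, the glycogen phosphorylase, had 276 and 929 CPM in grr1-deficient libraries and 31.5 and 27 CPM in WT (4.36 ± 1.00, edgeR adjusted p = 0.0189). Both were higher in replicate 2 than in replicate 1, and both calls were lost without either WT replicate, that of HSP12 also in the fit of untreated libraries alone and that of GPH1 also without grr1-deficient replicate 2. GAC1, which directs a phosphatase to glycogen synthase, had 33.3 and 44.8 CPM in grr1-deficient libraries and 1.56 and 1.4 CPM in WT (4.71 ± 0.45, edgeR adjusted p = 0.000268). RPI1 was the member called lower (−1.86 ± 0.20). The stress response element AGGGG, searched on both strands, stands upstream of 24 of the 25 higher genes. It stands upstream of 48.2% of all genes and 55.6% of all genes called higher. The list was chosen as genes known under Msn2 and Msn4, so its share is not a separate result.

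Autophagy genes were higher in 16 of 27 members and lower in 1, and in 9 and 0 without grr1-deficient replicate 2. ATG39, the receptor for nuclear envelope autophagy, had 56.8 and 49.7 CPM in grr1-deficient libraries and 3.22 and 2.47 CPM in WT (4.22 ± 0.22, edgeR adjusted p = 1.25e-05), and ATG8, the protein conjugated to lipid on autophagosomes, had 39.5 and 105 CPM in grr1-deficient libraries and 12.5 and 11 CPM in WT (2.62 ± 0.45). The vacuolar mannosidase AMS1 (2.42 ± 0.29) and trehalase ATH1 (2.12 ± 0.19) were higher too. Cell wall integrity genes were higher in 18 of 36 members and lower in 2, and in 12 and 1 without replicate 2. PIR3, a wall protein, had 102 and 251 CPM in grr1-deficient libraries and 2.78 and 1.29 CPM in WT (6.43 ± 0.60, edgeR adjusted p = 0.000498). PRM5, a target of the pathway, changed by 1.76 ± 0.28. Of oxidative stress genes 8 of 25 were higher (32%, beside 22.5% of all genes) and 4 lower (16%, beside 27.2%). Their median was 0.40, and 0.09 without grr1-deficient replicate 2. The sulfiredoxin SRX1 (4.01 ± 0.39) and the mitochondrial peroxiredoxin PRX1 (2.74 ± 0.29) were higher. The thioredoxin peroxidase AHP1 was lower, at 8.88 and 24.1 CPM in grr1-deficient libraries against 158 and 122 CPM in WT (−3.12 ± 0.43).

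Of the sulfur genes 8 of 27 were higher (29.6%, beside 22.5% of all genes) and 7 lower (25.9%, beside 27.2%), in 7 and 4 without grr1-deficient replicate 2 and in 14 and 1 with total counts. SUL1, a high-affinity sulfate permease, had 472 and 244 CPM in grr1-deficient libraries and 14.8 and 11.8 CPM in WT (4.75 ± 0.37, edgeR adjusted p = 0.000168), and its paralog SUL2 changed by 1.38 ± 0.12. CYS4, the first enzyme from homocysteine to cysteine, was lower, with 453 and 399 CPM in grr1-deficient libraries and 1471 and 1365 CPM in WT (−1.74 ± 0.15). Thiamine genes were higher in 14 of 22 members and lower in 2, PHO3 of the phosphate list among them. Their median was 1.18, and 1.14 without grr1-deficient replicate 2. The rises were led by the near-identical THI5 (3.12 ± 0.40), THI12 and THI13, all at 25 CPM or under. Of nitrogen catabolite repressed genes 11 of 27 were higher (40.7%, beside 22.5%) and 7 lower (25.9%, beside 27.2%). Their median was 0.37, and 0.21 without grr1-deficient replicate 2. The glutamate dehydrogenase GDH2 was higher with 277 and 339 CPM in grr1-deficient libraries and 69 and 73.9 CPM in WT (2.11 ± 0.14). In the iron regulon 13 of 28 were higher (46.4%, beside 22.5%) and 3 lower (10.7%, beside 27.2%). The median was 0.45, and 0.46 without grr1-deficient replicate 2. FRE5 (4.08 ± 0.58) and FIT3 (3.44 ± 0.57), a putative reductase and a wall mannoprotein for siderophore iron, were higher, and FRE4, a reductase for siderophores, was lower with 2.12 and 4.67 CPM in grr1-deficient libraries and 35.5 and 37.4 CPM in WT (−3.47 ± 0.37).

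Lower in grr1-deficient cells, mostly by modest amounts, was the machinery of protein synthesis. Log2 changes ranged from −1.96 to −0.24 in cytosolic ribosomal proteins and from −1.77 to 0.74 in RNA polymerase I and III subunits. Cytosolic ribosomal proteins were lower in 131 of 137 tested genes and higher in 0, with a median of −1.24, in 130 without grr1-deficient replicate 2 and in 124 with total counts (median −0.84). They took 14.0% and 13.7% of gene reads in grr1-deficient libraries and 25.2% and 23.6% in WT. RPL9A had 907 and 571 CPM in grr1-deficient libraries and 3124 and 2621 CPM in WT (−1.96 ± 0.25, edgeR adjusted p = 0.000475), and RPS27B, RPS9B and RPL23A changed by −1.76, −1.70 and −1.67. Most of these genes have a near-identical paralog, so that reads may be split between copies. Ribosome biogenesis factors were lower in 61 of 64 members (median −1.12, 60 without replicate 2), among them the nucleolar helicase DBP2 (222 and 169 CPM in grr1-deficient libraries, 661 and 612 CPM in WT, −1.70 ± 0.18) and the nucleolin NSR1 (−1.61 ± 0.15). RNA polymerase I and III subunits were lower in 17 of 22 and higher in 2 (11 and 3 with total counts), with the polymerase I subunit RPA43 at −1.77 ± 0.19. Translation factors were lower in 32 of 37 members (27 without replicate 2 and 17 with total counts), and the elongation factor YEF3, the most highly read of those named, had 6855 and 4756 CPM in grr1-deficient libraries and 13483 and 13262 CPM in WT (−1.20 ± 0.22, edgeR adjusted p = 0.00224). The mitochondrial and cytosolic ribosomal protein lists thus moved in opposite directions, under TMM and under total counts, which the strip plot shows beside 20 further lists.

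**Figure D4:**
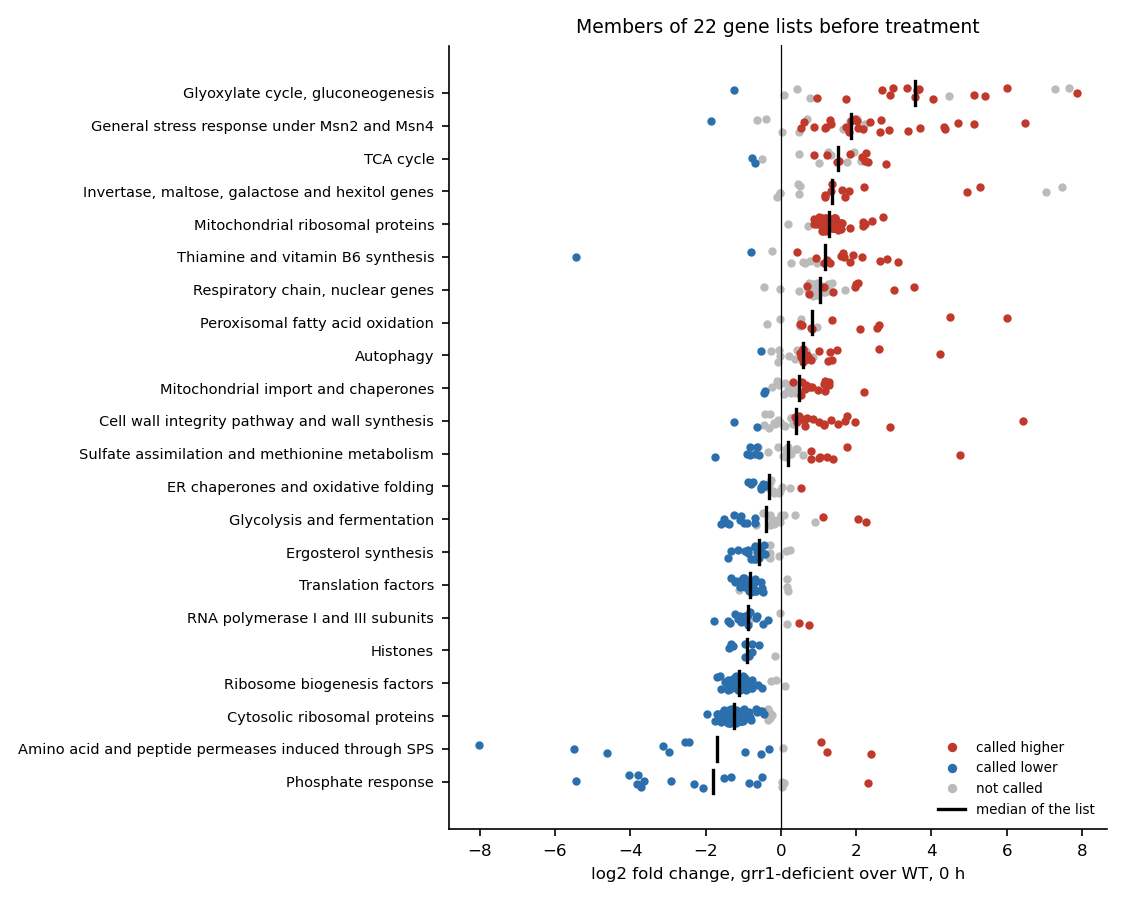
Log2 fold change of grr1-deficient over WT cells at 0 h (horizontal axis) for the tested members of 22 gene lists (rows), sorted by median. Each point is a gene, red where called higher, blue where called lower and grey where not called, and bars mark medians, from 3.55 for the glyoxylate and gluconeogenesis list (2.15 without grr1-deficient replicate 1) to −1.79 for the phosphate response.

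In glycolysis 11 of 26 genes were lower and 3 higher (18 and 2 without grr1-deficient replicate 2), with a median of −0.39 that turns to 0.07 with total counts. CDC19, the pyruvate kinase, had 2245 and 2838 CPM in grr1-deficient libraries and 7512 and 7816 CPM in WT (−1.59 ± 0.20, edgeR adjusted p = 0.000465), and PFK26, which makes fructose 2,6-bisphosphate, was higher with 117 and 275 CPM in grr1-deficient libraries and 38.9 and 43.3 CPM in WT (2.25 ± 0.43). Ergosterol synthesis was lower in 17 of 27 and higher in 0 (14 without replicate 2), but in 5 lower and 2 higher with total counts, with the methyl sterol oxidase ERG25 at −1.33 ± 0.22. Cytosolic chaperones were lower in 11 of 22 and higher in 2, with a median of −0.29 that turns to 0.12 with total counts. The constitutive SSA2 and the ribosome-associated SSB1 changed by −1.21 ± 0.24 and −1.11 ± 0.20, while the inducible HSP82 changed by 1.00 ± 0.18.

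The transcripts of proteins known as targets of SCF-Grr1, together with UBP3 and its cofactor BRE5, were lower in 6 of 15 and higher in 1, MTH1 (4 and 1 without grr1-deficient replicate 2). Besides STD1, the glycolytic activator TYE7 was lower, with 17.8 and 26 CPM in grr1-deficient libraries and 59 and 65.1 CPM in WT (−1.52 ± 0.21, edgeR adjusted p = 0.000785). CLN2 had 58 and 52.3 CPM in grr1-deficient libraries and 86.5 and 104 CPM in WT (−0.79 ± 0.14, edgeR adjusted p = 0.00184, lost with total counts), and CLN1 had 72.3 and 71.9 CPM in grr1-deficient libraries and 69.6 and 76.3 CPM in WT and did not pass (−0.02). UBP3, the deubiquitinase named in the title of the series, had 69.7 and 48.7 CPM in grr1-deficient libraries and 63.8 and 73.8 CPM in WT and did not pass (−0.21 ± 0.19, edgeR adjusted p = 0.368). BRE5 (−0.49), GIS4 (−0.56) and CLN3 (−0.82) were called lower. All of these calls were lost without grr1-deficient replicate 2, without WT replicate 2 and with total counts. Those of BRE5 and CLN3 were also lost in the fit of untreated libraries alone. That of CLN3 was lost as well with the replicate block (edgeR adjusted p = 0.0507), with coding region reads and without mitochondrial genome genes. SSY5, MKS1, HOF1, GIC2, PFK27 and PSR1 did not pass.

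Histone genes were lower in 9 of 10 and higher in 0 (8 lower without grr1-deficient replicate 2), with HTB2 at −1.37 ± 0.16. Haploid and pheromone pathway genes were lower in 9 of 16 and higher in 0 (7 without that library), but in 5 lower and 3 higher with total counts. FAR1, the G1 arrest protein, had 28.2 and 24.3 CPM in grr1-deficient libraries and 163 and 173 CPM in WT (−2.68 ± 0.13, edgeR adjusted p = 6.68e-06), SST2, a regulator of the pheromone G protein, had 54.8 and 35.1 CPM in grr1-deficient libraries and 183 and 194 CPM in WT (−2.06 ± 0.19), and the G protein subunit GPA1 changed by −1.28 ± 0.13. Of 7 MATa-specific genes 3 were lower: the a-factor gene MFA2 (5.56 and 8.59 CPM in grr1-deficient libraries, 83.9 and 106 CPM in WT, −3.77 ± 0.27), the protease BAR1 (−2.50 ± 0.34) and the receptor STE2 (−1.94 ± 0.15). MFA1 had 4.64 and 20.5 CPM in grr1-deficient libraries and 21.1 and 24.2 CPM in WT and did not pass. The median of the MATa list was −0.89, and −2.16 without grr1-deficient replicate 2. Of the meiosis list, 6 of 18 were higher (33.3%, beside 22.5% of all genes) and 1 lower (5.6%, beside 27.2%). Its median was 0.87, and 0.44 without grr1-deficient replicate 2. IME1, the master regulator of meiosis, stayed under 2 CPM.

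Genes of the endoplasmic reticulum showed small differences before treatment. Of 20 chaperone and oxidative folding genes 8 were lower and 1 higher (6 and 1 without grr1-deficient replicate 2), with a median of −0.33 that turns to 0.09 with total counts, under which 1 was lower and 2 higher. KAR2, the main chaperone there, had 776 and 853 CPM in grr1-deficient libraries and 1079 and 982 CPM in WT and did not pass (−0.34 ± 0.18, edgeR adjusted p = 0.155). HAC1, the factor of the unfolded protein response, had 1346 and 1131 CPM in grr1-deficient libraries and 1199 and 1128 CPM in WT (0.09 ± 0.19, edgeR adjusted p = 0.722), and IRE1 did not pass either (0.02). These totals do not tell spliced from unspliced HAC1 RNA. Of 18 genes of ER-associated degradation 4 were lower (22.2%, beside 27.2% of all genes) and 0 higher. Of 29 glycosylation genes 15 were lower (51.7%) and 1 higher, but 3 and 4 with total counts. Their median was −0.46, and −0.38 without grr1-deficient replicate 2. GFA1, the first enzyme towards UDP-GlcNAc, was the higher one (1.76). The median of the degradation list was −0.18, and 0.24 with total counts.

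Most genes called before treatment were not called in the same direction at 4 h, where the cells are other libraries. Of the 262 rises and 52 falls over 4-fold, 84 and 28 were called in the same direction again. A missing call at 4 h does not by itself show a change, for which the interaction test is given. The grr1-deficient replicate 2 at 4 h likewise had few mitochondrial reads, 0.766% of gene reads, 94706 of 94806 of them in Q0092. At 4 h, 1008 genes were higher (17.2%) and 828 lower (14.1%) in grr1-deficient over WT cells. Of the 1316 genes higher at 0 h, 354 were also higher at 4 h and 147 were lower, and of the 1595 lower at 0 h, 271 were also lower and 311 higher. The genotype difference itself changed between times in 2182 genes (37.3%) by the interaction test, upwards in 1166 (19.9%) and downwards in 1016 (17.4%), and in 781 of the genes higher and 933 of those lower at 0 h. Cytosolic ribosomal proteins were lower in 131 of 137 at 0 h but higher in 134 at 4 h, and 136 passed the interaction test. Of the 35 stress genes, 2 were higher and 9 lower at 4 h, and 27 passed the interaction test. In the phosphate list 13 of 18 passed it, and PHO5, at a log2 difference of 0.36 at 4 h, was no longer called. HXT1 (−7.85 at 4 h), HXT3 (−4.40) and BAP3 (−6.72) were lower at 4 h too, and SUL1 (4.98) was higher. For HXT1, HXT3 and SUL1 no change in the genotype difference was called (edgeR adjusted p = 0.41, 0.37 and 0.73), while that of BAP3 was smaller at 4 h (edgeR adjusted p = 0.033). The median log2 change of mitochondrial ribosomal proteins was 0.19 at 4 h, with 8 of 67 higher. Those values stand beside each other in the plot of both times.

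**Figure D5:**
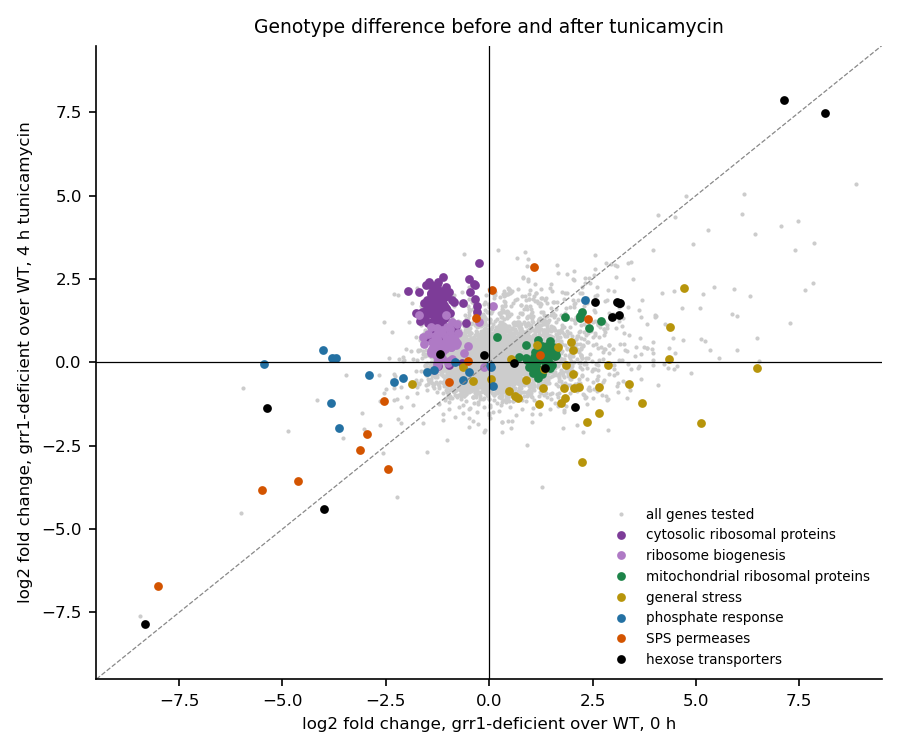
Log2 fold change of grr1-deficient over WT cells at 4 h of tunicamycin (vertical axis) against that at 0 h (horizontal axis) for the genes tested, with 7 lists coloured and the diagonal dashed; 1 gene lies outside the axes. Hexose transporters and SPS permeases reach along the diagonal, cytosolic ribosomal proteins lie to the upper left with a median of 1.79 at 4 h, and phosphate and stress genes spread along the horizontal line.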

How the data were processed

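RNA was read in 8 libraries, of which the 4 untreated ones are compared here. Per the submitters' processing notes, reads went through cutadapt 2.6, Bowtie2 2.3.5 and STAR 2.7.3a, and the genome build was R64, with no order of steps given. Per the file headers, the authors counted reads of 25 to 100 nt, offset by 25 nt, in 6696 regions with plastid, and deposited whole-number counts, RPKM and the countable length of each region. The headers name no strand setting, so reads of overlapping or antisense genes may not be told apart, and 105 regions have a countable length of 0.

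The deposited counts over exon positions of all 8 libraries were fitted together with edgeR 4.0.16 in R 4.3.3 (filterByExpr, TMM scaling, quasi-likelihood test, a term for each genotype and time). Contrasts were the genotype at 0 h, at 4 h and their difference, with Benjamini-Hochberg adjustment over all 5855 genes and a threshold of 0.05. CPM are TMM-scaled. The deposited RPKM served only to order genes by level. The fit was tested on simulated data. Replicates are described as biological, but nothing says how far the cultures were separate, so p-values measure the spread between these libraries. Each ± value is the absolute log2 change divided by the square root of the test's F statistic. It is not a fitted standard error, and where reads are few it may understate counting error. Intervals and floors cover counting error only.

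The gene lists and the genes described were chosen with earlier results of these data known. Named genes were the 15 largest rises and 15 largest falls with at least 50 reads and no overlap, leaving out GRR1 and the mitochondrial genome. Also named were up to 4 called members of each list with the largest change. All members of the lists of Grr1 targets, hexose transporters, glucose signalling, the SPS pathway and the retrograde pathway were included. Not all of these are printed, and other list members named, such as VTC3, ADR1, CAT8, ICL1, HAC1 and KAR2, were chosen after their values were seen. Alternatives were other scalings (total counts, DESeq2 size factors), the DESeq2 1.42.0 Wald test, no filter, the untreated libraries alone, coding region counts, removal of mitochondrial genes, a replicate block, and leaving out libraries.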

Additional observations from a re-analysis of the deposited data

Results flagged for a closer look

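For the genes below the genotype difference itself differed between 4 h and 0 h by edgeR's interaction test. Each value is the log2 difference at 4 h minus that at 0 h, so a value opposite in sign to the untreated difference means a smaller or reversed genotype difference at 4 h. No explanation was tested.

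Among hexose uptake and glucose signalling genes the values were −3.40 for HXT5, 1.44 for HXT2, 3.99 for HXT4, −1.34 for SNF3, 1.26 for RGT2, −0.78 for MTH1, 1.54 for STD1, 1.32 for TUP1, 1.25 for CYC8, −4.67 for HXK1, −3.50 for GLK1 and −2.97 for EMI2. Among amino acid and peptide uptake genes they were 1.30 for BAP3, 1.67 for TAT1, 1.63 for SAM3, 2.09 for PTR2, 1.78 for MMP1, −0.99 for AGP3, 2.80 for OPT2 and 3.03 for OPT1, and −1.82 for the deaminase CHA1, whose difference was thus larger at 4 h. Among phosphate and metal genes they were 5.38 for PHO3, 4.38 for PHO5, 2.61 for PHO84, 3.93 for PHO12, 3.85 for PHO11, 2.54 for VTC3, 1.72 for VTC4, −0.81 for PHO85, 1.47 for ZRT1, 1.69 for ZRT2, −3.12 for FRE7 and 3.10 for FRE4.

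In carbon and energy metabolism they were −3.23 for ADR1, −3.73 for CAT8, −2.67 for ALD4, −1.26 for GAL4, −1.71 for GAL3, −5.63 for POT1, −4.21 for POX1, −1.68 for FOX2, −2.34 for CIT1, −2.18 for IDH1, −1.62 for IDH2, −3.11 for PDH1, −0.94 for CIT2, −1.56 for HAP4, −4.57 for CYB2, −4.34 for RGI2, 1.93 for CDC19 and −2.13 for PFK26. For mitochondrial protein genes they were −1.46 for MRPL31, −1.39 for MRPL38, −0.87 for MRP17 and −0.97 for HSP60. In stress, autophagy, vacuole and wall genes they were −6.65 for TMA10, −6.95 for HSP12, −2.47 for GAC1, 1.21 for RPI1, −4.28 for ATG39, −3.13 for ATG8, −3.26 for AMS1, −1.34 for ATH1, −2.58 for PIR3, −1.44 for PRM5, −2.60 for SRX1, −3.32 for PRX1, −1.87 for HSP82 and 2.41 for SSB1. In sulfur, vitamin and nitrogen genes they were 0.55 for SUL2, 1.12 for CYS4, −4.0 for THI5, −3.84 for THI12, −3.05 for THI13 and −2.44 for GDH2. BNA2 was at −3.29 and YMR206W at −4.98.

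Among the genes of protein synthesis they were 4.11 for RPL9A, 3.25 for RPS27B, 3.80 for RPS9B, 2.91 for RPL23A, 3.13 for DBP2, 2.37 for NSR1, 2.54 for RPA43 and 2.31 for YEF3. Among cell cycle and mating genes they were −1.09 for CLN1, 2.64 for CLN3, 1.14 for TYE7, 0.67 for BRE5, 1.57 for HTB2, 2.28 for FAR1, 2.14 for SST2, 1.15 for GPA1, 3.96 for MFA2, 1.70 for BAR1 and 3.14 for STE2. With total counts the interaction was positive in 451 genes and negative in 2486, against 1166 and 1016 with TMM.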

How the results depend on the processing

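The counts of 1316 higher and 1595 lower genes became 2106 and 646 with total counts, and ranged from 804 to 1291 higher and from 1057 to 1613 lower when 1 untreated library was left out, the lowest values being those without WT replicate 2 and without WT replicate 1. Without 1 library a group rests on a single sample, assumed to vary like the others. The interaction count of 2182 ranged from 1365 to 2470 over the same omissions, the lowest without WT replicate 2. GRR1 ranged from −8.98 to −7.96. Replicate numbers do not pair the genotypes at 0 h (correlation of deviations 0.0016), and with the replicate block 1341 genes were higher, 1581 lower and 2213 passed the interaction test. Same-numbered grr1-deficient libraries of 0 h and 4 h did deviate together (0.796), those of WT did not (4.47e-05), and the fit without the block treats them as separate. The block gives both genotypes the same replicate shift, so no fit modelled a pairing of grr1-deficient libraries alone. Of 136 named genes called besides GRR1, 111 were called in the same direction under all 13 alternatives, and the 25 others lost the call in at least 1. The replicate block ended the calls of SAM3 and CLN3 and of no other of these genes. Among the 25, SAM3 alone changed sign, to 0.091 with total counts. Depth limits the lowest genes most in grr1-deficient replicate 2, where 3 reads come to 0.56 CPM.

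Genes that did not pass the test also changed sign. With total counts the log2 values were 0.39 for CLN1, 0.42 for DLD3, 0.27 for GAL1, 0.076 for GIC2, 0.011 for HXK2, 0.34 for HXT8, 0.25 for IME1, 0.079 for KAR2, 0.21 for MKS1, 0.31 for PSR1, 0.14 for RTG2, 0.25 for RTG3, 0.40 for SNF1, 0.41 for SNF4, 0.20 for SSY1, 0.30 for SSY5 and 0.17 for UBP3. In the fit of untreated libraries alone they were 0.080 for CLN1, 0.072 for DLD3, 0.024 for PSR1, 0.085 for SNF1 and 0.086 for SNF4. With mitochondrial genes removed they were 0.078 for CLN1, 0.069 for DLD3, 0.025 for PSR1, 0.083 for SNF1 and 0.084 for SNF4. With coding region counts they were 0.026 for IME1, −0.0093 for IRE1, −0.014 for PHO2, 0.0010 for PSR1 and −0.0054 for STP1. Without grr1-deficient replicate 2 at both times they were −0.13 for GAL7, 0.021 for GIC2, −0.19 for PHO2, 0.19 for PSR1, −0.058 for RGT2, 0.032 for RTG3, −0.061 for STP1 and 0.0069 for UBP3. With the replicate block the value was −0.018 for PTR3. Without the filter it was −0.0025 for PTR3. Leaving out 1 untreated library gave values from −0.091 to 0.021 for CLN1, from −0.48 to 0.29 for DLD3, from −0.34 to 0.12 for GAL1, from −0.12 to 0.97 for GAL7, from −0.78 to 0.030 for GIC2, from −0.068 to 0.21 for HAC1, from −1.11 to 0.49 for HXT8, from −0.89 to 1.25 for IME1, from −0.15 to 0.18 for IRE1, from −1.39 to 0.065 for PFK27, from −0.18 to 0.18 for PHO2, from −0.10 to 0.15 for PHO80, from −0.45 to 0.20 for PSR1, from −0.36 to 0.26 for PTR3, from −0.11 to 0.11 for RGT2, from −0.40 to 0.041 for RTG3, from −0.14 to 0.082 for SNF1, from −0.12 to 0.061 for SNF4, from −0.052 to 0.051 for STP1 and from −0.52 to 0.016 for UBP3. The cause of these shifts was not tested.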

Other observations

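Single genes outside the gene groups described above also differed before treatment. STL1, the glycerol and proton symporter of the plasma membrane, had 67 and 3.55 CPM in grr1-deficient libraries and 0.667 and 0.538 CPM in WT (log2 5.87 ± 1.62, edgeR adjusted p = 0.0322). The grr1-deficient replicates differ from each other by more than 10-fold, and the call was lost in the fit of untreated libraries alone, without either WT replicate and with coding region counts. BNA2, which opens the pathway from tryptophan to NAD, had 38.4 and 46.5 CPM in grr1-deficient libraries and 8.34 and 8.82 CPM in WT (2.3 ± 0.16, edgeR adjusted p = 5.22e-05). YMR206W, an open reading frame without a gene name in the annotation used, had 125 reads over both grr1-deficient libraries and 4 over WT, a ratio of 44.3 with an exact 95% interval of 16.9 to 165.1.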
